A study of Mus musculus with 12 samples.

Results

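The genes described here are 10 markers of astrocytes that encode the membrane transporters, channels, junction proteins and metabolic enzymes of these cells. They were chosen by name, as the rows whose Ensembl ID carries one of 10 symbols in GENCODE M21: Slc1a2, Slc1a3, Aqp4, Gja1, Gjb6, Slc4a4, Atp1b2, Aldoc, Aldh1l1 and Gfap. All 10 were found among the 46078 gene IDs of the table, and all 10 passed the filter on low values that left 17496 genes for testing. The 12 RNA-seq libraries came from hippocampal tissue of C57BL/6 mice aged 25 days after birth. Chd8 mutant males and Chd8 mutant females, with 3 libraries each, were heterozygous for the frameshift CHD8 Asn2373LysfsX2. Wild-type males and wild-type females, also with 3 libraries each, were of the same strain background, tissue and age. Chd8 encodes a chromatin remodelling enzyme, and the design asks how the hippocampal transcriptome differs between heterozygotes and wild type in each sex. Whether each library is a different animal is not stated, and the p-values therefore reflect variation among libraries that can be technical.

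Astrocytes take up the glutamate and potassium that neurons release, exchange water and ions with vessels through their endfeet, and are joined to one another by gap junctions. The glutamate transporters GLT-1 (Slc1a2) and GLAST (Slc1a3) clear the synaptic cleft, aquaporin-4 carries water at the endfeet, and connexin 43 (Gja1) and connexin 30 (Gjb6) form the junctions. The bicarbonate cotransporter NBCe1 (Slc4a4) and the pump subunit encoded by Atp1b2 serve ion balance. Aldolase C (Aldoc), the folate enzyme ALDH1L1 and the filament protein GFAP are widely used to recognise the cells. In RNA from whole tissue, fewer cells of a type and less RNA per cell cannot be told apart.

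The genes lie on 8 chromosomes of GRCm38 and 3 of them are on chromosome 11. Slc1a2 spans chr2:102658659-102790784 on the plus strand, and Slc1a3 spans chr15:8634124-8710764 on the minus strand. The connexin genes are Gja1 at chr10:56377330-56402513 on the plus strand and Gjb6 at chr14:57123303-57133611 on the minus strand. Slc4a4 lies at chr5:88886818-89239653 on the plus strand and Atp1b2 at chr11:69599736-69605942 on the minus strand. Aldoc lies at chr11:78322968-78327781 on the plus strand, Gfap at chr11:102887336-102900912 on the minus strand and Aldh1l1 at chr6:90486427-90600203 on the plus strand. All 10 are protein-coding genes. Where strand is not kept, reads of antisense partners cannot be told apart from the genes' own. Slc1a2 shares 189 exonic bases with the antisense gene Gm13872 and Aldh1l1 shares 499 with Gm15756, and these partners had on average 0.75 and 1.08 reads per library.

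RefSeq promoters on GRCm38.p6 were available for 8 of the 10 genes, and the 250 bases before the start are shown for 5 that the results below turn on. Slc1a2 and Slc1a3, and Gja1 and Slc4a4, were among the pairs whose log2 levels correlated most closely across libraries, and Gjb6 varied most between libraries. Capitals mark the letters TTGGC or GCCAA, the half-site of the nuclear factor I family, whose members act in astrocyte differentiation. Both strands were searched.
Slc1a2 promoter (chr2:102706188-102706437, plus strand): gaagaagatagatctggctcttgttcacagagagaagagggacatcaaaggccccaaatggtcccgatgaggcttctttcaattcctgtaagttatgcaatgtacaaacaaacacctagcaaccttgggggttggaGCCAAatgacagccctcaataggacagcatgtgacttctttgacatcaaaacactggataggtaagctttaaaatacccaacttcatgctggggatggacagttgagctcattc
Slc1a3 promoter (chr15:8710808-8711057, minus strand): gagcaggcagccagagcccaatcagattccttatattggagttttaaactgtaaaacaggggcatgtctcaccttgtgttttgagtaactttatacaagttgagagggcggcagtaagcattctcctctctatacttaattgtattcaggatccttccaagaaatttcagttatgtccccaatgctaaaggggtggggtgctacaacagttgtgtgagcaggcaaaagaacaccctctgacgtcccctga
Gja1 promoter (chr10:56377050-56377299, plus strand): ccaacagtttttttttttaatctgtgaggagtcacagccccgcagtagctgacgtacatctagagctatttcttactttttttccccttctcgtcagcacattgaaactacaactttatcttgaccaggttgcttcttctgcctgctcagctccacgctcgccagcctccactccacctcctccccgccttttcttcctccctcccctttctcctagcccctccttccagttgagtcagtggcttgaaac
Slc4a4 promoter (chr5:88887010-88887259, plus strand): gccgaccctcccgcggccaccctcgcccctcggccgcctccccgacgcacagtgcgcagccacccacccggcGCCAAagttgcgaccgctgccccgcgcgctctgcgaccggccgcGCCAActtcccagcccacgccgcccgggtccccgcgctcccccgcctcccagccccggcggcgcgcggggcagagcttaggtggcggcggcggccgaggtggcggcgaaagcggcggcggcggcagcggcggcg
Gjb6 promoter (chr14:57133612-57133861, minus strand): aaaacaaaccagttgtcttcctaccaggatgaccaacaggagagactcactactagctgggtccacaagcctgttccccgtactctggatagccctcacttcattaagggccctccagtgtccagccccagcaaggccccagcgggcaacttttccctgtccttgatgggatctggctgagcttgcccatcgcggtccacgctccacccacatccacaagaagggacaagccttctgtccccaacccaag
The RefSeq starts used for Slc1a2, Slc4a4, Aldoc, Aldh1l1 and Gfap lie inside the GENCODE spans given above, so other starts of these genes exist upstream. Half-sites were present in 3 of the 8 promoters, those of Slc1a2, Slc4a4 and Aldoc, beside 41.5% of 32817 mouse promoters of the same length. The full nuclear factor I site, a pair of half-sites facing each other, was in none of the 8 and in 0.0366% of all promoters. The letters TTCNNNGAA, recognised by STAT factors, occurred in the Slc1a3 promoter alone, 1 of 8, beside 7.01% of all promoters. These are matches of letters in a window and say nothing about binding.

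Several properties of the whole series bear on the comparisons. Mutant libraries held 23721482 to 24654408 recovered reads and wild-type libraries 26912998 to 33327314, so depth and genotype cannot be told apart. Chd8 had 2383 to 2513 normalized counts in the 6 mutant libraries, against 2751 to 2994 in the 6 wild-type libraries. It was the 1 gene of 17496 called in the average over the sexes, where it was 14.4% lower in mutants, at -0.22 on the log2 scale (limma adjusted p = 0.0289). That call was lost in 10 of the 12 fits that left out 1 library, all except those without mutant male 3 or wild-type male 1, with a value of -0.24 to -0.21 in all 12. Markers of neurons were present at high levels, as for Slc17a7, the vesicular glutamate transporter, with 33958 to 37362 normalized counts in mutant and 32830 to 36134 in wild-type libraries. No marker of the 12 other cell types examined was at 0 in any library. The score of 12 choroid plexus markers, a mean of log2(value + 1), was 5.467 in mutant male 2, 5.919 in mutant male 3 and 5.373 in wild-type female 1. In the other 9 libraries it was 9.904 or more in mutants and 9.696 or more in wild type. The score of 12 meningeal fibroblast markers was 8.126 to 9.037 in mutant males, 8.368 to 9.942 in mutant females, 8.065 to 8.987 in wild-type males and 7.788 to 8.212 in wild-type females. The 10 oligodendrocyte markers all had lower values in mutants, with a median log2 fold change of -0.24 averaged over the sexes, and none passed the test. The part these differences have in the results below was tested only where a value is given.

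Per kilobase of exon, the glutamate transporter gene Slc1a2 was the most abundant of the 10. The length is that of all annotated exons of a gene merged, so the order can depend on which transcripts are made. Slc1a2 had a mean of 6229 normalized counts per kilobase over the 12 libraries, the 99.57th percentile of the tested genes, and Aldoc had 4566. Atp1b2 followed with 2694, Gfap with 2519 and Slc1a3 with 1754 normalized counts per kilobase. Aqp4 had 993.2, Slc4a4 597.4, Gja1 566.8, Gjb6 434.1 and Aldh1l1 258.4 normalized counts per kilobase, the last at the 71.18th percentile. The order held in all 12 libraries for 7 of the 9 neighbouring pairs. Atp1b2 was above Gfap in 11 of 12 libraries and Gja1 above Gjb6 in 11 of 12, and the ratio of Slc4a4 to Gja1 was only 1.00 to 1.10. Together the 10 genes took 0.5498 to 0.6016% of the reads in mutant libraries and 0.5385 to 0.631% in wild-type libraries, which overlap.

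Most of the astrocyte genes differed less between libraries of a group than the median tested gene, and Gjb6 differed most. The standard deviation within groups on the log2 scale was 0.06 for Gja1, 0.07 for Atp1b2 and Slc4a4, and 0.08 for Slc1a3 and Gfap. It was 0.09 for Aqp4, 0.10 for Slc1a2 and 0.12 for Aldoc and Aldh1l1, against a median of 0.11 over all tested genes. That median covers tested genes of every level, and genes of similar level were not compared. Gjb6 stood apart from the other members at 0.25, the 75.54th percentile. Its highest library had 2.12 times the level of its lowest, whereas that ratio was 1.14 for Gja1, the steadiest of the genes.

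**Figure D1:**
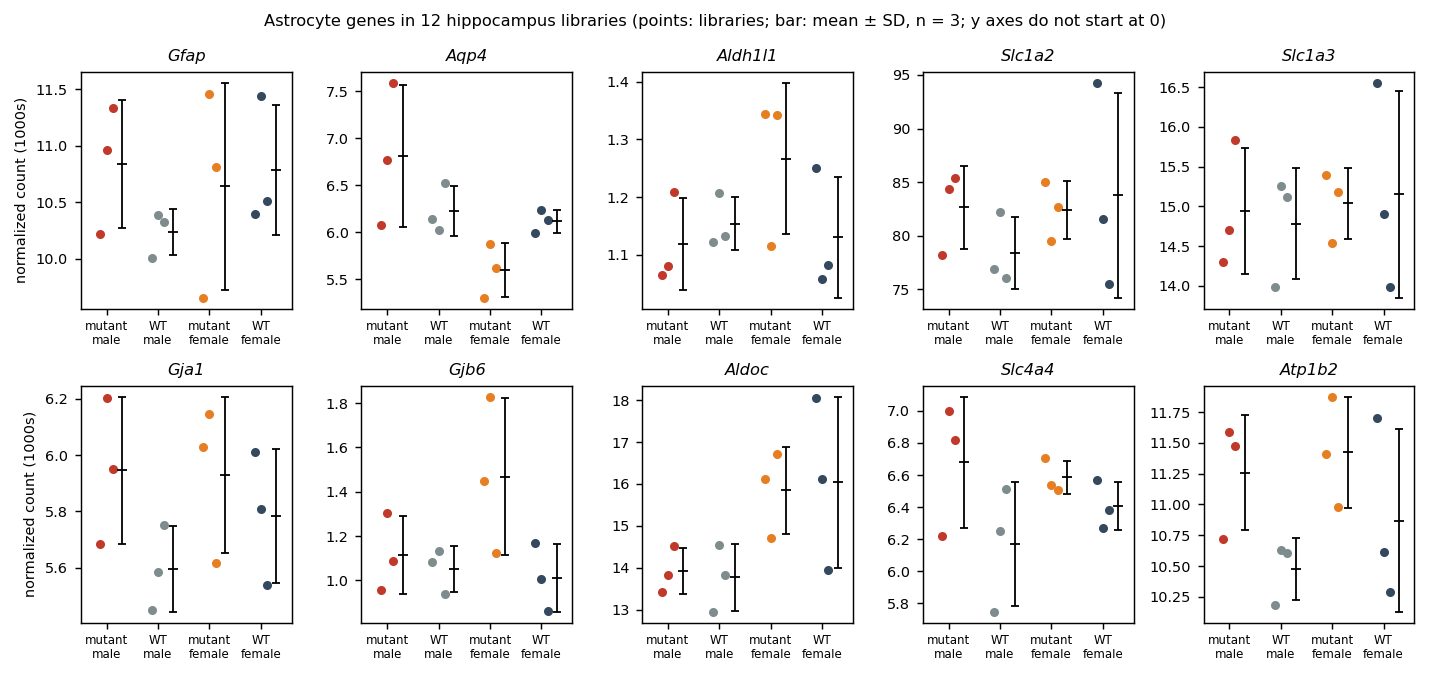
Normalized counts (axes in units of 1000) of the 10 astrocyte genes in each library (points), with the mean and SD of each group of 3 beside them; y axes do not start at 0. Groups overlap in most panels, whereas for Aqp4 the 3 mutant females lie below the 3 wild-type females and for Atp1b2 the 3 mutant males lie above the 3 wild-type males.

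Between genotypes, none of the 10 genes passed the test, in the average over the sexes, in males or in females. Limma called 0 of 10 at an adjusted p under 0.05 in the average, where 0.00572% of all tested genes were called, and 0 of 10 in males and in females, where 0% were. At an unadjusted p under 0.05, 2 of 10 had higher values in the average (Gjb6 and Atp1b2) and 0 of 10 lower, beside 4.40% and 4.47% of all genes. In males 1 of 10 was higher (Slc4a4) and 0 lower, beside 4.10% and 6.23% of all genes. In females 1 of 10 was higher (Gjb6) and 0 lower, beside 3.82% and 3.07%. In 0 of 10 genes did all 6 mutant libraries lie on one side of all 6 wild-type libraries, as in 0.543% of all genes. By DESeq2, 0 of 10 were called in any genotype comparison, where it called 75 genes in the average, 25 in males and 9 in females. The median log2 fold change of the 10 genes was 0.044 in the average with 9 positive values, 0.08 in males with 9 positive and 0.014 in females with 5 positive. Over all tested genes the median was -7.27e-05 in the average, 0.0017 in males and 0.0011 in females.

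**Figure D2:**
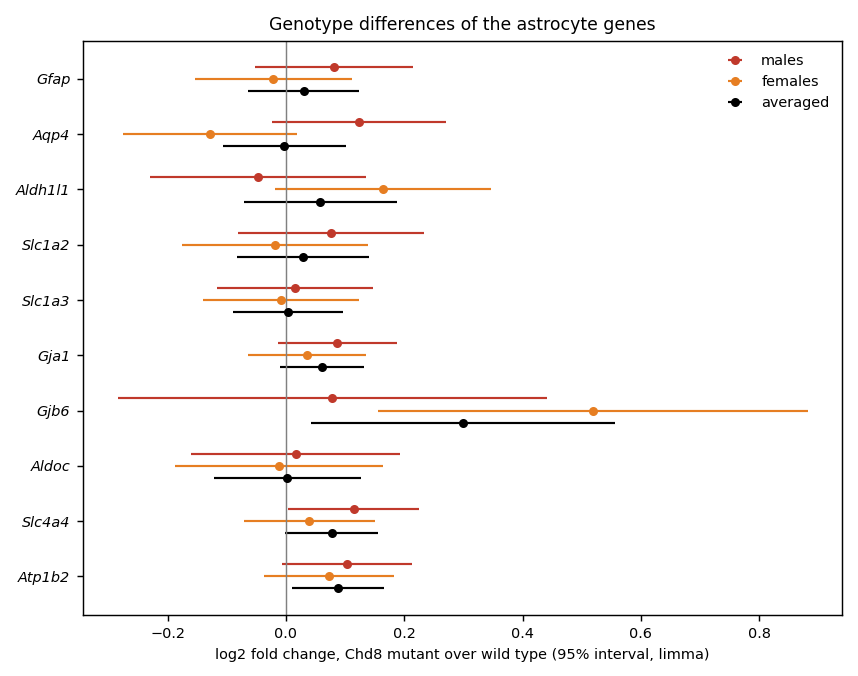
Log2 fold changes of mutant over wild type for each astrocyte gene, with 95% intervals from limma, in males, in females and averaged over the sexes. Most intervals include 0 and are narrow, and the interval of Gjb6 in females, from 0.16 to 0.88, is among the few that do not and is not called after adjustment.

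The glutamate transporters had almost the same level in both genotypes. Slc1a2, which encodes GLT-1, the main glutamate transporter of the hippocampus, had 78243, 84388 and 85363 normalized counts in mutant males, against 76854, 82227 and 76090 in wild-type males. In females it had 84983, 79536 and 82714 in mutants, against 94279, 81512 and 75535 in wild type. The highest value and the lowest were both in wild-type females, and the groups overlapped in each sex. Averaged over the sexes, its log2 fold change was 0.029 (95% interval -0.082 to 0.14, limma adjusted p = 0.899). The direction of that small value turned under some settings, with a range over all alternatives of -0.0066 to 0.073.

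Slc1a3, which encodes GLAST, had 14295, 14697 and 15830 normalized counts in mutant males, against 13983, 15251 and 15113 in wild-type males. Mutant females had 15395, 14539 and 15175, against 16557, 14908 and 13985 in wild-type females. Here too the wild-type females spanned the whole range of the 12 libraries except for the lowest, and both sexes overlapped between genotypes. In the average its log2 fold change was 0.0037 (95% interval -0.090 to 0.097, limma adjusted p = 0.989).

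Aqp4, which encodes the water channel of astrocyte endfeet, had higher values in mutant males and lower values in mutant females, without passing the test in either. It had 6079, 6764 and 7591 normalized counts in mutant males, against 6137, 6021 and 6529 in wild-type males. Mutant females had 5304, 5880 and 5620, against 5992, 6234 and 6133 in wild-type females. The highest libraries were mutant males 2 and 3, mutant male 1 lay within the wild-type males, and all 3 mutant females lay below all 3 wild-type females. The last pattern was seen for 1 of 10 astrocyte genes and 5.66% of all genes. Males had a log2 fold change of 0.12 (standard error 0.067, limma adjusted p = 0.554) and females one of -0.13 (standard error 0.067, adjusted p = 0.774). In the average it was -0.0025 (95% interval -0.11 to 0.10).

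The male genotype effect of Aqp4 exceeded the female one by 0.25 on the log2 scale (standard error 0.095, limma adjusted p = 0.619), which did not pass the test. For this difference 0% of all genes were called. At an unadjusted p under 0.05, Aqp4 was the 1 of 10 astrocyte genes with a positive difference and 0 of 10 had a negative one, beside 2.44% and 5.41% of all genes. The highest Aqp4 levels came from 2 of the 3 libraries with few choroid plexus transcripts. The other such library, wild-type female 1, had 5992 normalized counts, the lowest of the wild-type females. Without these 3 libraries, which leaves mutant male 1 as the only mutant male, assumed to vary like the other groups, the value was -0.034 in males and 0.11 for the difference between the sexes. Leaving out single libraries gave 0.043 to 0.20 in males. The lowest of these, which left out mutant male 3, and the highest, which left out mutant male 1, moved the value by more than 1.5 times. The differences of Gjb6 and Aldh1l1 between the male and female genotype effects were negative, at -0.44 (adjusted p = 0.689) and -0.21 (adjusted p = 0.713). That of Gjb6 was -0.27 without mutant female 2, and -0.83 with the choroid plexus score and -0.027 with the fibroblast score as a covariate.

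The gap junction genes differed from each other in how steady they were. Gja1, which encodes connexin 43, the most abundant astrocyte connexin, had 5684, 6203 and 5950 normalized counts in mutant males, against 5449, 5586 and 5753 in wild-type males. Mutant females had 6027, 6146 and 5616, against 6010, 5807 and 5537 in wild-type females. The genotypes overlapped in both sexes, and no library departed from the rest. Its log2 fold change was 0.061 in the average (95% interval -0.0097 to 0.13, limma adjusted p = 0.614), 0.087 in males and 0.035 in females.

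Gjb6, which encodes connexin 30, a junction protein of grey matter astrocytes that is also made by leptomeningeal cells, had the largest genotype difference of the 10 genes. It had 956, 1302 and 1087 normalized counts in mutant males, against 1082, 1134 and 937 in wild-type males. Mutant females had 1450, 1829 and 1121, against 1167, 1004 and 861 in wild-type females. Mutant female 2 was the highest of the 12 libraries, mutant female 1 the next, and mutant female 3 lay below the highest wild-type female, so the groups overlapped. In females the log2 fold change was 0.52 (95% interval 0.16 to 0.88, limma adjusted p = 0.590), a value 43.3% higher in mutants, and in males it was 0.078 (adjusted p = 0.914). Without mutant female 2 the value in females was 0.35. Averaged over the sexes it was 0.30 (standard error 0.12, adjusted p = 0.487). None of these passed the test.

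Gjb6 moved with the markers of meningeal fibroblasts. Across the 12 libraries its log2 level had a Pearson correlation of 0.839 with the fibroblast score (permutation p = 0.00097, adjusted p = 0.0097 over 10 relations). Spearman's rho was 0.657 (permutation p = 0.0241, adjusted p = 0.241), and r was 0.510 without the 2 libraries farthest from the median score, so the linear relation rests in part on those libraries. Within groups, as deviations from the group means, r was 0.746. The other 9 genes had correlations with the score of -0.263 to 0.439, with adjusted p-values of 0.603 or more. With the score as a covariate, the log2 fold change of Gjb6 was 0.070 in the average (limma adjusted p = 0.968) and 0.083 in females (adjusted p = 0.999). All 12 fibroblast markers had higher values in mutants in the average, with a median log2 fold change of 0.67, and in females, with 1.31. In males 8 of 12 were higher, with a median of 0.16. Col1a1, a collagen of fibroblasts, had 546 to 1573 normalized counts in mutant females, against 333 to 435 in wild-type females. This relation was examined after the values had been seen.

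**Figure D3:**
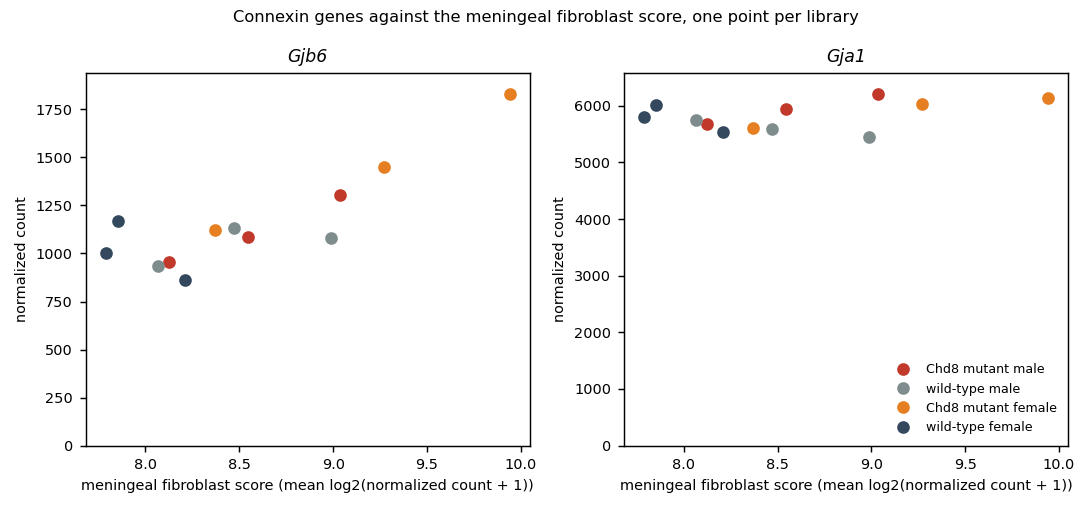
Normalized counts of Gjb6 and Gja1 (y axes, from 0) against the meningeal fibroblast score (x axes, mean of log2(normalized count + 1) over 12 markers), 1 point per library, coloured by group. Gjb6 is highest in the mutant female libraries with the highest scores, up to 1829, while Gja1 stays between 5449 and 6203.

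The ion transport genes had slightly higher values in mutants of both sexes, without passing the test. Atp1b2, which encodes the beta 2 subunit of the sodium pump, an adhesion molecule of glia, had 10720, 11586 and 11473 normalized counts in mutant males, against 10183, 10630 and 10610 in wild-type males. Mutant females had 11412, 11876 and 10981, against 11704, 10617 and 10287 in wild-type females. Every mutant male lay above every wild-type male, as for 8.37% of all genes, and the females overlapped. Averaged over the sexes, the log2 fold change was 0.088 (95% interval 0.011 to 0.17, limma adjusted p = 0.491), a value 6.32% higher in mutants. It was 0.10 in males (adjusted p = 0.507) and 0.073 in females (adjusted p = 0.837). Adding the choroid plexus score to the fit gave 0.0075 in males.

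Slc4a4, which encodes the sodium bicarbonate cotransporter of astrocytes, had 6220, 7001 and 6819 normalized counts in mutant males, against 5747, 6249 and 6512 in wild-type males. Mutant females had 6704, 6541 and 6510, against 6570, 6271 and 6383 in wild-type females. The 2 highest libraries were mutant males 2 and 3, and the groups overlapped in both sexes. Mutant over wild type, it was 0.11 on the log2 scale in males (standard error 0.051, limma adjusted p = 0.473), 0.039 in females (adjusted p = 0.939) and 0.077 in the average (adjusted p = 0.566). Mutant males 2 and 3 also had few choroid plexus transcripts, and without the 3 libraries low in these, which leaves 1 mutant male, the value in males was 0.014.

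The metabolic markers showed no genotype difference beyond the spread of the libraries. Aldoc, a glycolytic enzyme of astrocytes, had 13435, 13825 and 14522 normalized counts in mutant males, against 12954, 14540 and 13840 in wild-type males. Mutant females had 16119, 14710 and 16717, against 18039, 16124 and 13961 in wild-type females. The genotypes overlapped in both sexes, and females had higher values than males in most libraries of either genotype. The log2 fold change between genotypes was 0.0024 in the average (95% interval -0.12 to 0.13, limma adjusted p = 0.994).

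Aldh1l1, which encodes 10-formyltetrahydrofolate dehydrogenase, had 1064, 1080 and 1209 normalized counts in mutant males, against 1122, 1208 and 1132 in wild-type males. Mutant females had 1344, 1115 and 1342, against 1250, 1057 and 1082 in wild-type females. Mutant females 1 and 3 were the 2 highest of the 12 libraries, while mutant female 2 lay within the wild-type females. Its log2 fold change was 0.16 in females (standard error 0.084, limma adjusted p = 0.767), -0.047 in males (adjusted p = 0.895) and 0.058 in the average (adjusted p = 0.814). Leaving out 1 library gave 0.12 to 0.25 in females, the highest without mutant female 2, and -0.11 to -0.013 in males.

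Gfap, the intermediate filament protein whose level rises in reactive astrocytes, had 10217, 10959 and 11338 normalized counts in mutant males, against 10002, 10386 and 10323 in wild-type males. Mutant females had 9652, 11462 and 10810, against 10392, 11442 and 10512 in wild-type females. Mutant females held both the highest and the lowest of the 12 libraries, and the genotypes overlapped in both sexes. Averages differed by 0.030 on the log2 scale (95% interval -0.064 to 0.12, limma adjusted p = 0.876), with 0.081 in males and -0.021 in females.

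Between the sexes, again, no astrocyte gene passed the test. Limma called 0 of 10 between mutant males and mutant females, where 0.0629% of all genes were called, and 0 of 10 between wild-type males and wild-type females, where 0.0457% were. Aqp4 was higher in every mutant male than in every mutant female, with a log2 difference of 0.28 (standard error 0.067, limma adjusted p = 0.494). DESeq2 put the adjusted p of this difference at 0.0502, just above the threshold. In wild type the difference was 0.025 (adjusted p = 0.963). Aldoc was lower in every mutant male than in every mutant female, with a log2 difference of -0.19 (adjusted p = 0.679), and -0.21 between wild-type males and females (adjusted p = 0.751). Such separation of the mutant sexes was seen in 6.86% of all genes with males above and 5.85% with males below. Gfap was lower in every wild-type male than in every wild-type female, as in 6.45% of all genes, by a margin of 10386 against 10392 normalized counts between the nearest libraries. Gjb6 had a log2 difference of -0.38 between mutant males and females (adjusted p = 0.680) and 0.063 in wild type (adjusted p = 0.962).

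Across the 12 libraries, some of the astrocyte genes varied together. Correlations between pairs of other genes were not computed, so this is not shown to be particular to astrocyte genes. Of the 45 pairs of genes, 40 had a positive Pearson correlation of log2 levels, the median was 0.344, and 8 had a permutation p under 0.05 after adjustment over the 45 pairs. The closest pair was Gja1 and Atp1b2, with r = 0.915 (permutation p = 0.00014, adjusted p = 0.0063) and a Spearman rho of 0.839 (permutation p = 0.00126, adjusted p = 0.0279). Their r was 0.887 without the 2 libraries farthest from the median of Gja1. The glutamate transporters followed, Slc1a2 with Slc1a3 at r = 0.857 (permutation p = 0.00053, adjusted p = 0.0119) and a rho of 0.818 (permutation p = 0.00186, adjusted p = 0.0279). Without the 2 farthest libraries their r was 0.666. Gja1 with Slc4a4 had r = 0.794 (permutation p = 0.00085, adjusted p = 0.0127) and a rho of 0.825 (permutation p = 0.0016, adjusted p = 0.0279), and r = 0.772 without the 2 farthest. Slc4a4 with Atp1b2 had r = 0.764 (permutation p = 0.00197, adjusted p = 0.0208) and a rho of 0.727 (permutation p = 0.0103, adjusted p = 0.0775), and r = 0.688 without the 2 farthest.

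The lowest values were those of Aqp4 with Aldh1l1, at r = -0.415 (permutation p = 0.183, adjusted p = 0.412), with a rho of -0.490 (adjusted p = 0.259), and of Aqp4 with Aldoc, at r = -0.403 (permutation p = 0.196, adjusted p = 0.420), with a rho of -0.552 (adjusted p = 0.191). Neither passed the test, and r was -0.626 and -0.473 without the 2 farthest libraries of Aqp4. As deviations from the group means they were -0.00938 and 0.0221. Several genes had high correlations of these deviations. Slc1a2, Slc1a3, Aldoc and Aldh1l1 had correlations of 0.752 to 0.926 with one another. Gja1, Gjb6 and Atp1b2 had 0.780 to 0.883. Between these gene groups, Slc1a2 with Atp1b2 had 0.745 and Slc1a3 with Atp1b2 had 0.698. Gfap with Aqp4 had 0.737, beside 0.492 for the plain log2 levels (permutation adjusted p = 0.271). These groups of genes were read from the values and have no test of their own. Over the 9 libraries that remained without those low in choroid plexus markers, no pair had an adjusted p under 0.05, while r was still 0.901 for Gja1 with Atp1b2 and 0.753 for Slc1a2 with Slc1a3. All these correlations share the libraries and their size factors.

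**Figure D4:**
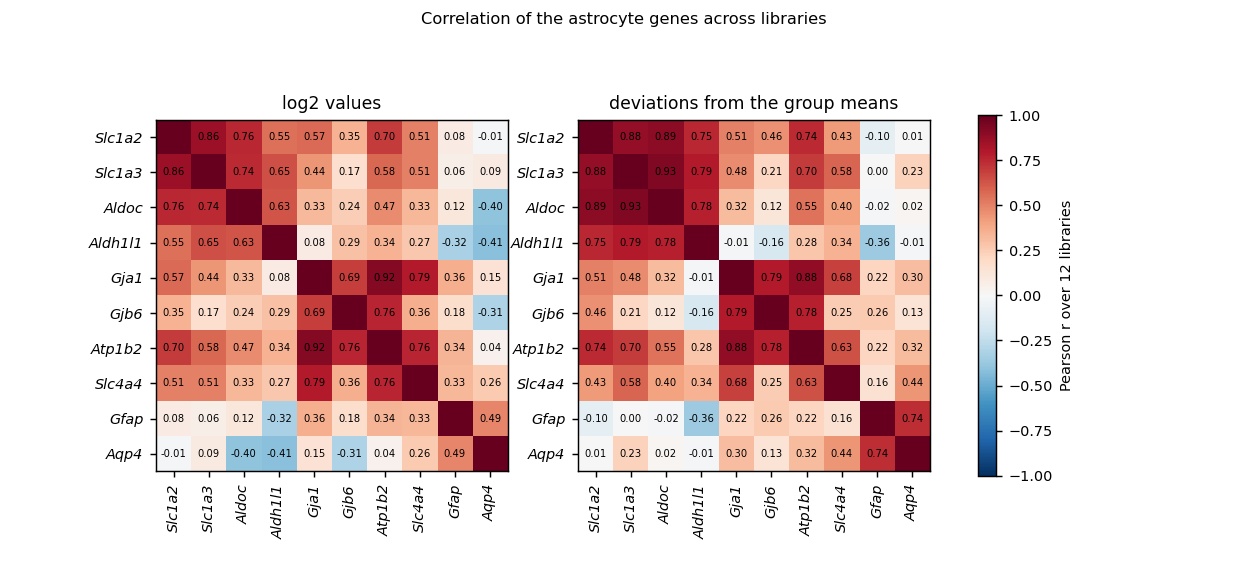
Pearson correlation of every pair of astrocyte genes across 12 libraries, for log2 levels (left) and for deviations from the group means (right), on a scale of -1 to 1. The glutamate transporters with the metabolic enzymes, the connexins with Atp1b2, and Gfap with Aqp4 have high values in the right panel, as does Slc1a2 with Atp1b2 at 0.745.

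Further astrocyte genes were drawn from 5 lists that share no gene with the 10. Of their 98 genes, 96 could be tested, and limma called 0 of them in the average, in males and in females, the background being 0.00572% and 0% in both sexes as above. At an unadjusted p under 0.05, 6 had higher and 2 lower values in the average, 2 higher and 8 lower in males, and 14 higher and 2 lower in females. The shares of all genes were 4.40% higher and 4.47% lower in the average, 4.10% and 6.23% in males, and 3.82% and 3.07% in females. The median log2 fold change in the average was -0.018 for amino acid transport and glutamine synthesis, -0.011 for ion, water and junction proteins and -0.023 for energy, lipid and one-carbon metabolism. It was 0.0053 for identity, receptors and secreted proteins. The identity list holds general markers of the cell type, such as the transcription factor Sox9.

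Among the amino acid transport genes the extremes were Slc38a3, a glutamine transporter, at -0.16 (limma adjusted p = 0.708) and Prodh, proline dehydrogenase, at -0.091 on the low side. Slc6a11, a GABA transporter, at 0.060 and Slc7a11, the cystine and glutamate exchanger, at 0.35 (adjusted p = 0.551) stood on the high side. Without wild-type female 3 Slc38a3 was -0.070. Among the ion and junction genes they were Trpv4, a calcium channel, at -0.64, Slc15a2, a peptide transporter, at -0.25 and Gjb2, connexin 26, at 0.72 (adjusted p = 0.552). Slc15a2 was -0.092 without wild-type female 2. Trpv4 had 44 to 51 normalized counts in the 3 libraries low in choroid plexus markers, which are mutant males 2 and 3 and wild-type female 1. In the other libraries it had 276 to 611 in mutants and 217 to 733 in wild type. Slc38a3 was also lowest in the 3 libraries low in choroid plexus markers, at 1831, 1939 and 1714 normalized counts, beside 2025 or more elsewhere.

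Gjb2 had 210 to 944 normalized counts in mutant females, against 172 to 220 in wild-type females, and with the fibroblast score as a covariate its average was -0.11. For the metabolic list the extremes were Phgdh and Psat1 of serine synthesis, at -0.077 and -0.076, and Pygm at 0.083 and Ppp1r3g at 0.087 of glycogen metabolism. For the identity list they were Mertk, a phagocytic receptor, at -0.11, Chrdl1 at -0.095, Agt, angiotensinogen, at 0.26 (limma adjusted p = 0.427) and Hes5, a Notch target, at 0.37 (adjusted p = 0.491).

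Genes of astrocyte reactivity had higher values in mutant females. Of the 22 genes tested, 21 had a positive log2 fold change in females, with a median of 0.33, beside 50.5% of all tested genes, and 7 of 22 had an unadjusted p under 0.05, beside 3.82% of all genes in that direction. In males 10 were positive, with a median of -0.012, and in the average 19 were, with a median of 0.16. None passed the test in any of these comparisons. The score of the list, a mean of log2(value + 1), was 7.455, 7.927 and 7.505 in mutant females. Wild-type females had 7.04, 7.343 and 7.436, so the nearest libraries almost met. The highest score was that of mutant female 2, which also had the highest fibroblast score. The lowest was that of wild-type female 1, which was low in choroid plexus markers. The extremes of the average were Serping1, a complement inhibitor, at 0.52, Aspg at 0.44, Stat3 at -0.020 and Steap4 at -0.48. Steap4 had 8 and 12 normalized counts in mutant males 2 and 3 and 12 in wild-type female 1. These libraries were low in choroid plexus markers, and the others had 39 or more. Serping1 had 460, 798 and 286 normalized counts in mutant females, against 207, 280 and 280 in wild-type females. With the fibroblast score as a covariate its average was -0.054 and that of Aspg was -0.038. Many genes of this list are also made by meningeal and vascular cells, and the fibroblast markers had a median of 1.31 in females. Markers of pericytes and smooth muscle were higher in mutant females in 9 of 9 cases, with a median of 0.76, and endothelial markers in 10 of 10, with a median of 0.16. In the average these medians were 0.48 and 0.091, again with all 9 and all 10 positive. The part of these cells in the reactivity values was not tested beyond the fit with the fibroblast score. Gfap, which is not in the list, had -0.021 in females.

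**Figure D5:**
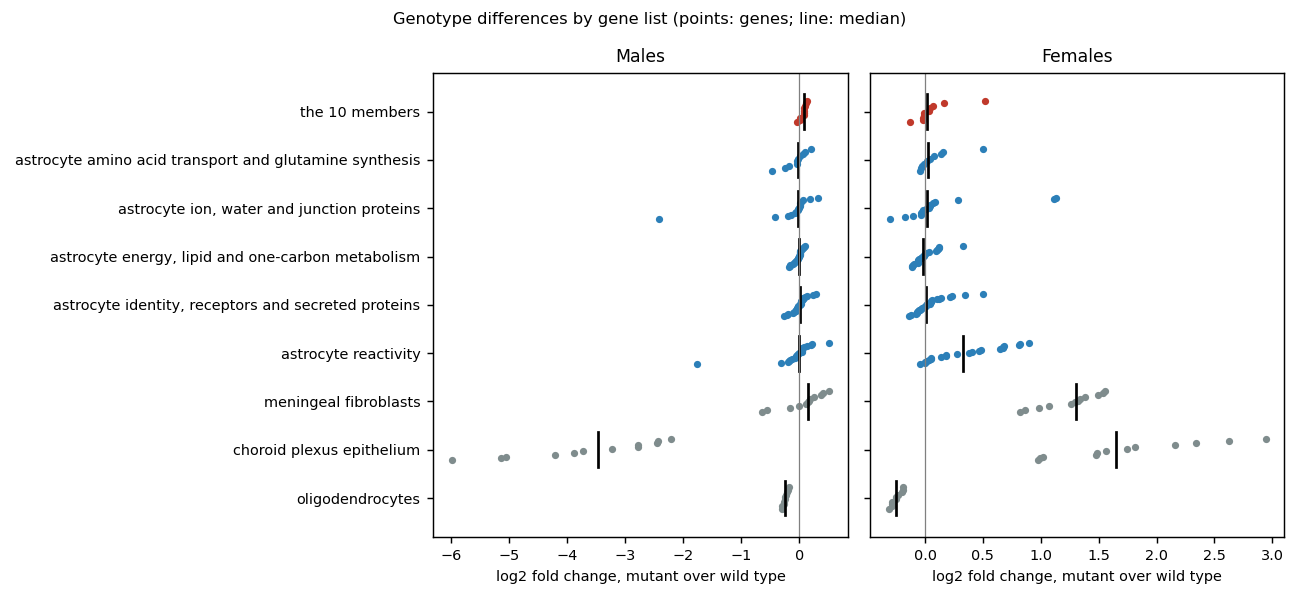
Log2 fold changes of mutant over wild type in males (left) and females (right), 1 point per gene, for the 10 astrocyte genes (labelled as members), the 5 further astrocyte lists and 3 lists of other cell types, with a line at each median; the panels have different x scales. The astrocyte lists centre near 0 except reactivity in females at 0.33, while choroid plexus markers have medians of -3.48 in males and 1.65 in females.

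Pygm, muscle glycogen phosphorylase, which astrocytes use to break down glycogen, was the 1 gene of these lists that another tool called. It had 657, 630 and 604 normalized counts in mutant males, against 732, 665 and 721 in wild-type males. Mutant females had 805, 865 and 895, against 694, 648 and 698 in wild-type females. Every mutant male lay below every wild-type male and every mutant female above every wild-type female, as in 0.674% of all genes in either arrangement. The log2 fold change in females was 0.33 by both tools, with an adjusted p of 0.584 by limma and 0.0244 by DESeq2. In that comparison DESeq2 called 9 of 17496 genes.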

How the data were processed

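The labels' protocols name a TruSeq RNA library kit. Tools listed in the submitters' processing notes are Trimmomatic 0.35, TopHat2 2.1.0, HTSeq and DESeq2, with the build GRCm38. The sources used here give neither their roles nor the annotation release. The deposited table gives 1 signal value per Ensembl gene and library, which proved to be a read count over a size factor: values were whole multiples of 1 step per library, within 0.0001 reads, in 100% of cases. GENCODE M21 gave symbols for 45229 IDs, and 849 had none. Columns of other samples numbered 0.

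Values were analysed as log2(value + 1) for genes with a mean of at least 10 (17496 tested, 28582 not) with limma 3.58.1 in R 4.3.3, using its trend option, 1 mean per group over all 12 libraries and Benjamini-Hochberg adjustment over all tested genes at 0.05. Fold changes are on that scale, which understates changes of low genes. edgeR 4.0.16 and DESeq2 1.42.0 were run on recovered reads as alternatives. Correlations used 100000 two-sided permutations. In each further list the 2 highest and 2 lowest averages were named, with any gene past the threshold by any tool, and of each other cell type the first marker where a result turns on it; 1 gene that this rule names is not reported here. The methods were tested on simulated data. For limma the planted changes were larger than every averaged change of the 10 genes, so the recovery of changes this small was not tested. The members and lists were chosen with earlier results of these data known.

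Depth is the recovered reads per library. Chi-square per degree of freedom between libraries of a group was 3.42 to 30.57, and no 2 of them differed by as little as sampling noise. Same-numbered libraries of different groups had deviations correlated over 0.1 in 4 of 18 pairs, and the numbers were not taken as pairing.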

Additional observations from a re-analysis of the deposited data

Results flagged for a closer look

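The genotype effect of Pygm differed between males and females by DESeq2 and did not pass the test by limma. The log2 fold change of mutants over wild type was -0.16 in males and 0.33 in females, a difference of -0.493 (limma adjusted p = 0.619, DESeq2 adjusted p = 0.019). All 3 mutant males lay below the wild-type males and all 3 mutant females above the wild-type females. The difference was between -0.54 and -0.45 in every alternative run. It was called by DESeq2 alone, which called 3 of the 17496 tested genes for this difference, and Pygm was named because of that call.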

How the results depend on the processing

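None of the 10 astrocyte genes was called in any of 154 alternative fits over 26 settings. Most of these fits called few genes of any kind, so this says little about the 10 genes by itself. In the average over the sexes, edgeR called 1 of 17496 genes and DESeq2 75 of 17496. The fit without mutant male 3 called 8 of 17511. Of 845 recomputed log2 fold changes of the 10 genes, 57 turned in sign. In the average over the sexes, Aqp4 was 0.0024 with upper-quartile factors and 0.00062 by edgeR, and Aldoc was -0.00092 by edgeR and -0.0016 by DESeq2. Adjusting for the choroid plexus score, the average was -0.0035 for Slc1a2, -0.021 for Slc1a3 and -0.027 for Aldoc. Males then had -0.050 for Slc1a2, -0.080 for Slc1a3, -0.19 for Gjb6 and -0.097 for Aldoc, and females 0.043 for Slc1a2, 0.038 for Slc1a3 and 0.043 for Aldoc. Adjusting for the fibroblast score, females had 0.0033 for Slc1a2, 0.062 for Slc1a3, -0.023 for Gja1 and 0.13 for Aldoc. Leaving out the 3 libraries low in choroid plexus markers leaves mutant male 1 alone in its group, assumed to vary like the others. Gfap then was -0.025 in the average, and males had -0.0025 for Gfap, -0.034 for Aqp4, -0.0019 for Slc1a2, -0.047 for Slc1a3, -0.13 for Gjb6 and -0.035 for Aldoc. Females had 0.070 for Slc1a2, 0.058 for Slc1a3 and 0.077 for Aldoc. The cause of these turns was not tested.

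Leaving out each library in turn gave averages of -0.046 to 0.047 for Aldoc, -0.043 to 0.037 for Aqp4, -0.0066 to 0.073 for Slc1a2 and -0.024 to 0.037 for Slc1a3. In males the ranges were -0.027 to 0.056 for Aldoc, -0.040 to 0.18 for Gjb6 and -0.027 to 0.046 for Slc1a3. In females they were -0.11 to 0.077 for Aldoc, -0.077 to 0.047 for Gfap, -0.090 to 0.070 for Slc1a2 and -0.064 to 0.058 for Slc1a3. Gjb6 in females was 0.35 to 0.70, and the sex difference of its genotype effect was -0.62 to -0.27. In all, 25 of 33 fold changes of the 10 genes, over the same comparisons as the 845, turned in sign or moved by more than 1.5 times when 1 library was left out.

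Of the further genes, Steap4 was 0.028 with the choroid plexus score, and Slc7a11 -0.0057, Gjb2 -0.11, Aspg -0.038 and Serping1 -0.054 with the fibroblast score. Without the 3 libraries Trpv4 was 0.069 and Steap4 0.27. Without single libraries Chrdl1 was -0.20 to 0.0039, Ppp1r3g -0.011 to 0.19, Slc15a2 -0.39 to -0.092, Slc38a3 -0.24 to -0.070, Trpv4 -1.25 to -0.20, Steap4 -1.03 to -0.13, Gjb2 0.44 to 0.98, Aspg 0.23 to 0.60 and Serping1 0.33 to 0.70. DESeq2 called 1 further astrocyte gene in females, Pygm, where it called 9 of all 17496 tested genes. Of the 45 pairs, 8 passed with all libraries, 12 as deviations from group means, 9 with a pseudocount of 5 and 0 over the 9 libraries left without those 3. The permutations treated the deviations as independent although those of a group sum to 0. The p-values behind the count of 12 can therefore be too small, and it is not a gain over 8.

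Numbers in the labels were not taken as pairing. Same-numbered deviations correlated from -0.58 to 0.29, which cannot decide whether same-numbered libraries were handled together. A fit with the replicate block called 0 astrocyte genes, and 0 genes in all in the average, against 1 without it, with Chd8 at -0.22. Chd8 also missed the threshold with no filter on low values and with the fibroblast score (-0.20). Depth differed wholly with genotype, and with 3 libraries a group the standard error of a member's averaged fold change was 0.033 to 0.12.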
